A study of Homo sapiens with 6 samples.

Results

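The 10 genes described here encode the catalytic subunits of the immunoproteasome (PSMB8, PSMB9 and PSMB10), the constitutive catalytic subunits whose place they take (PSMB5, PSMB6 and PSMB7), the PA28 activator (PSME1 and PSME2) and the 2 aminopeptidases of the endoplasmic reticulum (ERAP1 and ERAP2). They were chosen by name, and 9 of the 10 matched a transcript cluster, the probe group of 1 gene, among the 21448 on the arrays. PSME2 was not analysed here. MDA-MB-231 cells, an established human line of triple-negative breast cancer, stably carried pUNO1-hOSM, which expresses human oncostatin M (OSM), or the vector pUNO1 without an insert, 2 μg of either having been transfected. The OSM line, MDA-MB-231-hOSM (hOSM below), and its control, MDA-MB-231-hC (hC below), were kept in blasticidin at 10 μg/mL and grown in parallel, and no recombinant OSM is named in the labels. Total RNA from 3 sets, taken to be the 3 passages of the study design, was hybridized to Human Clariom S arrays (n = 3 arrays per line). The labels name neither separate transfections nor clones. An effect of OSM and a difference that arose between these lines in transfection or selection thus cannot be told apart. In bulk RNA, more cells with a transcript and more of it per cell cannot be told apart either.

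The proteasome is a barrel of stacked rings that cuts unneeded proteins into peptides, and some of these peptides are shown to T cells on MHC class I. Interferon γ and other inflammatory signals induce the subunits PSMB9, PSMB10 and PSMB8, which take the places of PSMB6, PSMB7 and PSMB5 in newly built particles. The resulting immunoproteasome cuts more often behind hydrophobic and basic residues, which fit the binding groove of MHC class I. PA28 opens the gate of the barrel, the transporter TAP moves peptides into the endoplasmic reticulum, and ERAP1 and ERAP2 trim them there. Immune cells hold the immunoproteasome without any stimulus, whereas most other cells build it on demand.

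Most of the members whose gene starts could be searched share DNA letters there. The interferon-stimulated response element (ISRE) is bound by interferon regulatory factors, and its core was searched on both strands as GAAA, any 2 bases and again GAAA, which reads as TTTC around 2 bases on the opposite strand. RefSeq windows from 250 bases before to 50 bases after the gene start (GRCh38.p14) were at hand for 8 of the 10 members. The constitutive subunits PSMB6 and PSMB7 had none and were not searched. Of the 8, 6 held the core in at least 1 window (PSMB8, PSMB10, PSME1, PSME2, ERAP1 and ERAP2). Since the choice of genes included subunits known to be induced by interferon γ, this share is a description only. Over all 27305 genes with a window, 4.38% held it. PSMB9 and PSMB5 held none. The stretches from 60 bases before to 20 bases after the start are shown with the core in capitals, for measured members with the core and for PSMB9 and PSMB5, which lack it there. Where a gene has 2 windows, the one with the core is shown, and for PSMB5 the one that starts farther upstream.
PSMB8 (chr6:32844028-32844107, minus strand): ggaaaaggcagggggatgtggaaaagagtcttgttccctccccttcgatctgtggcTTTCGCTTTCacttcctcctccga
PSMB10 (chr16:67936831-67936910, minus strand): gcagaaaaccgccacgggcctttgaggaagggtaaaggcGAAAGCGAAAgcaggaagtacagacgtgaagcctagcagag
PSME1 (chr14:24136134-24136213, plus strand): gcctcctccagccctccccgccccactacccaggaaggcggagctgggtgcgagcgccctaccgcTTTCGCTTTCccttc
ERAP1 (chr5:96807926-96808005, minus strand): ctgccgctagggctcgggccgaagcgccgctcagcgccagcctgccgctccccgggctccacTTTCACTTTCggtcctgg
ERAP2 (chr5:96876440-96876519, plus strand): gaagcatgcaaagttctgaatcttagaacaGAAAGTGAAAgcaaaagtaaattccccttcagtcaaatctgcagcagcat
PSMB9 (chr6:32854132-32854211, plus strand): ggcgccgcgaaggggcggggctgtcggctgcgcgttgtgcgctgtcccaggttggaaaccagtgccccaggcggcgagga
PSMB5 (chr14:23035201-23035280, minus strand): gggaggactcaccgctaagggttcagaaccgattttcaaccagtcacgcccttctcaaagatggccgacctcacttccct

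PSMB9 starts 488 bases from TAP1, a gene of the peptide transporter, and both are read outward from the stretch between them. Within it lie 2 overlapping ISRE cores, 354 to 369 bases before the PSMB9 start and so beyond the window of PSMB9 that was searched. They are shown in the direction of TAP1, from 150 to 60 bases before its start.
TAP1 (chr6:32853764-32853854, minus strand): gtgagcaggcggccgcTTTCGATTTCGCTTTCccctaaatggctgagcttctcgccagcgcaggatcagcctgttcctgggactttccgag
Among the members, the GAS letters TTCNNNGAA, a site of STAT factors, were found in windows of PSMB8 and PSMB5 (9.38% of all genes). The NF-kB consensus was found in 1 window of ERAP1 (13.3% of all genes). The TAP1 stretch above also holds the NF-kB consensus, at −72 to −63 from the TAP1 start, left there in lower case. Such matches describe the letters only, and none was tested as a binding site.

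**Figure D1:**
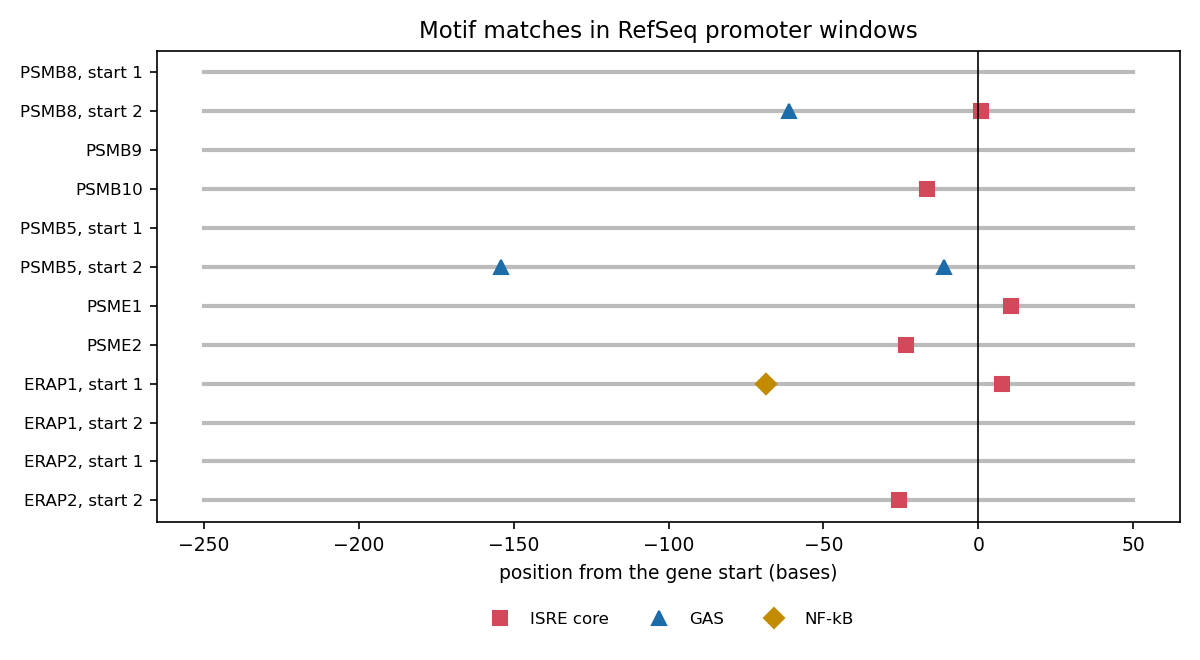
Positions of ISRE core, GAS and NF-kB letters in RefSeq promoter windows of 8 members, in bases from the gene start (0 on the horizontal axis; a gene with several starts has a line for each). The ISRE cores lie within 30 bases of the start in PSMB8, PSMB10, PSME1, PSME2, ERAP1 and ERAP2, and PSMB9 has no match.

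The transfected gene served as a check of the labels. OSM had a log2 signal of 5.14 ± 0.10 in hC and 14.80 ± 0.11 in hOSM (SD, n = 3 arrays each), and OSMR, its receptor, was 7.67-fold higher (limma adjusted p = 0.000346). When the arrays of a set were averaged, these averages hardly varied (median SD 0.0076 across sets), whereas the difference between them did (median SD 0.225). Both lines thus had almost the same SDs, and which of a set's arrays departed from its group cannot be told. Whether the deposited values had been adjusted for set is not given in the sources used here. If they had, the signals of single arrays and the counts of genes whose arrays do not overlap describe the adjusted values. Standard errors and adjusted p-values below therefore come from limma with the set as a block, with Benjamini-Hochberg adjustment across the 21448 transcript clusters. They combine how a gene's difference varied over the 3 sets with the variance typical of all transcript clusters. The latter weighs more, with 4.38 prior against 2 residual degrees of freedom. For genes whose sets differ little, such as PSMB5, standard error and interval thus rest mostly on it. A gene was called at an adjusted p under 0.1 and a change over 2-fold, the thresholds of the study. As a guide to background, the 95th percentile of the mean log2 signal of 348 olfactory receptor genes was 5.78. VIM, CD44, EGFR, AXL and MSN, expressed in MDA-MB-231, had mean signals from 11.61 to 16.36. Of these, CD44, an adhesion receptor, rose by 0.71 in hOSM (limma adjusted p = 0.0175), AXL, a receptor kinase, fell by 0.86 (limma adjusted p = 0.00843) and 3 did not pass. ESR1 and PGR, the hormone receptors that triple-negative cells lack, and the luminal factor FOXA1 lay below 5.78 in both lines, and ERBB2 was not analysed here. GATA3, listed beside them as a marker that such cells lack, lay above the guide in both, at 7.39 in hC and 6.78 in hOSM, and fell by 0.61 (limma adjusted p = 0.0274).

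The immunoproteasome subunits PSMB8 and PSMB9 were higher in hOSM, and the 3 constitutive subunits did not pass. Of the 9 measured members 2 were called higher and 0 lower, where 4.16% of all transcript clusters were called, 2.60% higher and 1.57% lower. At the adjusted p alone 3 members were higher (PSMB8, PSMB9 and ERAP2) and 0 lower, against 9.22% and 10.4% of all transcript clusters (19.7% in either direction). Without the set as a block 6 members were higher at the adjusted p alone, but so were far more of all transcript clusters (10235 in either direction, against 4217 with the block). That fit counts 4 residual degrees of freedom and takes the arrays of a set as independent, though the set averages hardly varied. Its p-values, also where given below, are therefore too small and serve as a comparison only. The median log2 fold change of the 9 members was 0.39, and that of all transcript clusters −0.03. The hC and hOSM arrays did not overlap for 8 of the 9 members, of which 7 were higher in hOSM. For all transcript clusters that share was 50.0% in either direction and 22.2% higher.

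**Figure D2:**
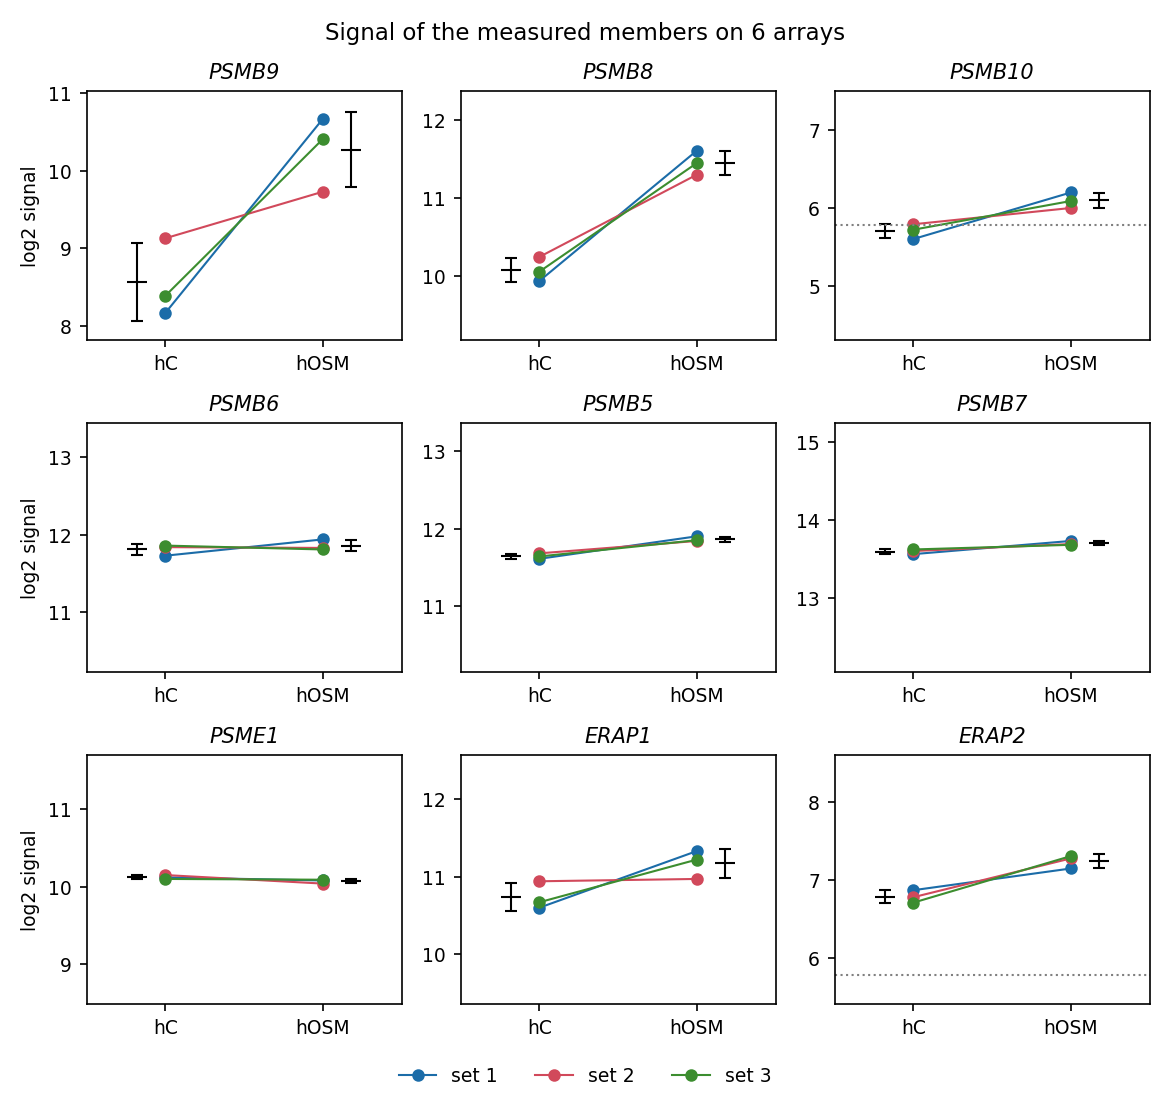
Log2 signal of the 9 measured members in hC and hOSM, with a line joining the arrays of each set, the mean and SD beside the points (n = 3 arrays) and, dotted, the background guide of 5.78. Every vertical axis spans the same number of log2 units. The means of PSMB9 and PSMB8 lie 1.71 and 1.38 higher in hOSM, while the hOSM means of PSMB6, PSMB7 and PSME1 stay within 0.11 of the hC mean.

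PSMB9, the inducible β1 subunit, had log2 signals of 8.17, 9.13 and 8.39 in hC and 10.67, 9.73 and 10.41 in hOSM (sets 1, 2 and 3). The lines did not overlap, and the arrays of set 2 lay closest to each other. The difference was 3.26-fold (log2 fold change 1.71, SE 0.34, limma adjusted p = 0.0276). It was 2.50, 0.60 and 2.02 on the log2 scale in sets 1, 2 and 3, so set 2 stayed under 2-fold. PSMB9 no longer passed the adjusted p when both arrays of set 1 (log2 fold change 1.31, adjusted p = 0.163) or of set 3 (1.55, adjusted p = 0.221) were left out, and its log2 fold change was 2.26 without set 2.

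PSMB8, the inducible β5 subunit, had log2 signals of 9.93, 10.24 and 10.05 in hC and 11.61, 11.30 and 11.45 in hOSM. Each hOSM array lay above every hC array by more than 1 log2 unit. The difference was 2.60-fold (log2 fold change 1.38, SE 0.15, limma adjusted p = 0.00393), with 1.68, 1.06 and 1.40 in the 3 sets. PSMB8 remained called whichever set was left out (adjusted p from 0.0466 to 0.0963). PSMB8-AS1, an antisense gene that overlaps the start of PSMB8 and the end of TAP1 in RefSeq, was 2.90-fold higher (log2 fold change 1.54, adjusted p = 0.0127). Its mean hC signal of 5.52 lay below the background guide (5.18, 5.79 and 5.60 by set), so this fold sets a signal against background. It was chosen after its value was seen. Whether its probes separate these genes by strand is not given in the sources used here.

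PSMB10, the inducible β2 subunit, had log2 signals of 5.60, 5.79 and 5.72 in hC and 6.20, 6.00 and 6.09 in hOSM. The hOSM arrays lay above the hC arrays by a narrow margin, and 2 of the 3 hC arrays were under the background guide of 5.78, so the size of the difference is limited by background. The log2 fold change was 0.39 (SE 0.13, 95% interval 0.07 to 0.71), and it missed the threshold (adjusted p = 0.111 from limma, or 0.0105 without the set as a block). All 3 inducible subunits had differences above 0 in every set, and for all 3 set 1 gave the largest difference and set 2 the smallest.

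The constitutive subunits differed little between the lines. PSMB5, the constitutive β5 subunit, had log2 signals of 11.61, 11.68 and 11.64 in hC and 11.90, 11.84 and 11.85 in hOSM. Its arrays did not overlap, with a log2 fold change of 0.22 (95% interval −0.07 to 0.51, adjusted p = 0.279 from limma, or 0.0172 without the set as a block). PSMB6, the constitutive β1 subunit, had 11.73, 11.84 and 11.86 in hC and 11.94, 11.83 and 11.81 in hOSM, with overlap (log2 fold change 0.05, 95% interval −0.25 to 0.35, adjusted p = 0.826). PSMB7, the constitutive β2 subunit, had 13.56, 13.60 and 13.62 in hC and 13.73, 13.69 and 13.68 in hOSM (log2 fold change 0.11, 95% interval −0.18 to 0.39, adjusted p = 0.599). The upper ends of these intervals are 1.42-fold, 1.28-fold and 1.31-fold, so a change of 2-fold lies outside each of them. None of the 3 had an unadjusted p under 0.05.

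Set against each other within a set, the inducible subunits moved further than those they replace. Averaged over PSMB8, PSMB9 and PSMB10 the log2 difference (hOSM minus hC) was 1.59, 0.62 and 1.26 in sets 1, 2 and 3. Averaged over PSMB5, PSMB6 and PSMB7 it was 0.22, 0.08 and 0.07. The gap between both averages was 1.37, 0.54 and 1.19 (mean 1.03, SD 0.43, n = 3 sets), or 2.05-fold, and it was above 0 in each set. By position, PSMB9 exceeded PSMB6 by 2.29, 0.61 and 2.07 (mean 1.66), PSMB8 exceeded PSMB5 by 1.39, 0.90 and 1.19 (mean 1.16), and PSMB10 exceeded PSMB7 by 0.43, 0.12 and 0.31 (mean 0.29). No test was run on these gaps, because they are scores over members chosen with earlier results known.

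**Figure D3:**
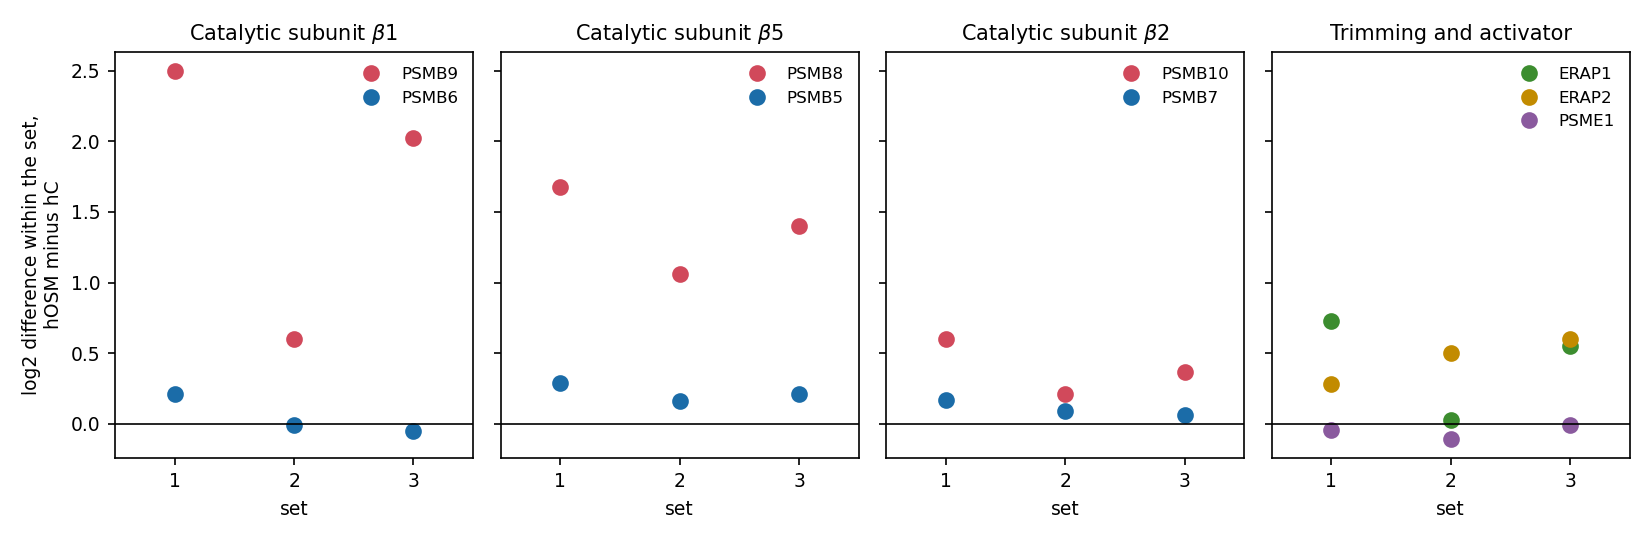
Log2 difference between hOSM and hC within each of 3 sets (horizontal axis), for each inducible subunit (red) beside the constitutive one it replaces (blue) and for ERAP1, ERAP2 and PSME1. PSMB9 lies at 2.50, 0.60 and 2.02, and its counterpart PSMB6 at 0.21, −0.01 and −0.05.

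Of the activator, PSME1, which encodes PA28α, was measured. Its log2 signals were 10.12, 10.15 and 10.10 in hC and 10.08, 10.04 and 10.09 in hOSM. The hOSM arrays lay just below the hC arrays, with a log2 fold change of −0.05 (95% interval −0.34 to 0.23, adjusted p = 0.801 from limma). PSME1 holds the same 10 ISRE letters as PSMB8, shown above, at 6 to 15 from its start against −4 to 6 in PSMB8. Whether these letters bear on the signal of either gene was not tested.

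Both aminopeptidases were higher on average, by amounts under 2-fold. ERAP1, which trims peptides to the length that MHC class I holds, had log2 signals of 10.60, 10.94 and 10.67 in hC and 11.33, 10.97 and 11.22 in hOSM. In set 2 its arrays were nearly equal. The log2 fold change was 0.44 (95% interval 0.04 to 0.84, adjusted p = 0.143 from limma, or 0.0380 without the set as a block), with 0.73, 0.03 and 0.55 by set. ERAP2, a related enzyme that prefers peptides with basic ends, had 6.87, 6.78 and 6.71 in hC and 7.15, 7.28 and 7.31 in hOSM. Its arrays did not overlap, and it passed the adjusted p but not the 2-fold limit (1.38-fold, log2 fold change 0.46, SE 0.13, limma adjusted p = 0.0694). By set the difference was 0.28, 0.50 and 0.60, so here set 1 and not set 2 was smallest. With any set left out ERAP2 no longer passed (adjusted p from 0.155 to 0.263).

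Taken with its sign (hOSM minus hC), the difference was lowest in set 2 for 6 of the 9 measured members, namely PSMB8, PSMB9, PSMB10, PSMB5, PSME1 and ERAP1. For PSME1, which lay below 0 in every set, the lowest value of −0.11 is also the one farthest from 0. Over all transcript clusters the signed difference was lowest in set 2 for 34.7%, and over the 557 called higher for 40.2%. The median absolute log2 difference over all transcript clusters, most of them not called, was 0.26, 0.26 and 0.27 in sets 1, 2 and 3. Over those called higher it was 1.59, 1.49 and 1.75, so lowest in set 2 as well. OSM itself differed by 9.84, 9.71 and 9.43, so its lowest was in set 3. Members share their arrays, so this count describes these sets and was not tested.

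The rest of the proteasome did not pass. The 8 genes of the α ring, the 4 noncatalytic β subunits and the 16 measured subunits of the 19S regulatory particle, which recognizes and unfolds proteins marked with ubiquitin, gave 0 calls among 28 genes, and 0 at the adjusted p alone in limma (9 without the set as a block, 1 at an unadjusted p under 0.05). Over all transcript clusters 4.16% were called and 19.7% passed the adjusted p alone. Without the set as a block 10235 of the 21448 passed it. With so few genes, 0 calls among 28 lie near the called share. The log2 fold changes of the 28 genes ran from −0.35 to 0.25 with a median of 0.03. PSMB1, a noncatalytic β subunit, had the largest (−0.35, adjusted p = 0.116). Of the 19S genes PSMC6, an ATPase, and PSMD1, a scaffold subunit, shared the largest (−0.27, adjusted p = 0.199 and 0.205). PSMA8, a subunit of the testis, had the largest in the α ring (0.21, adjusted p = 0.523) at signals under the background guide. Among the 3 other activators and inhibitors 0 passed the adjusted p in limma (2 without the set as a block, 0 at an unadjusted p under 0.05). PSME3, the nuclear relative of PA28, had a log2 fold change of −0.20 (adjusted p = 0.358).

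Of 9 chaperones that assemble proteasomes, 0 were called, 1 was higher and 1 lower at the adjusted p alone, and 7 did not pass. Over all transcript clusters 4.16% were called, and 9.22% were higher and 10.4% lower at the adjusted p alone. PSMG3 fell by 0.60 in log2 signal (limma adjusted p = 0.0365) and PSMG1 was 1.47-fold higher (adjusted p = 0.0602). Both encode subunits of chaperones of the α ring. POMP, which drives the joining of the β ring and favours the immunoproteasome, had log2 signals of 12.08, 12.15 and 12.41 in hC and 12.82, 12.73 and 12.46 in hOSM (log2 fold change 0.46, adjusted p = 0.129, or 0.0322 without the set as a block). PSMG1 and POMP were chosen after their values were seen.

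**Figure D4:**
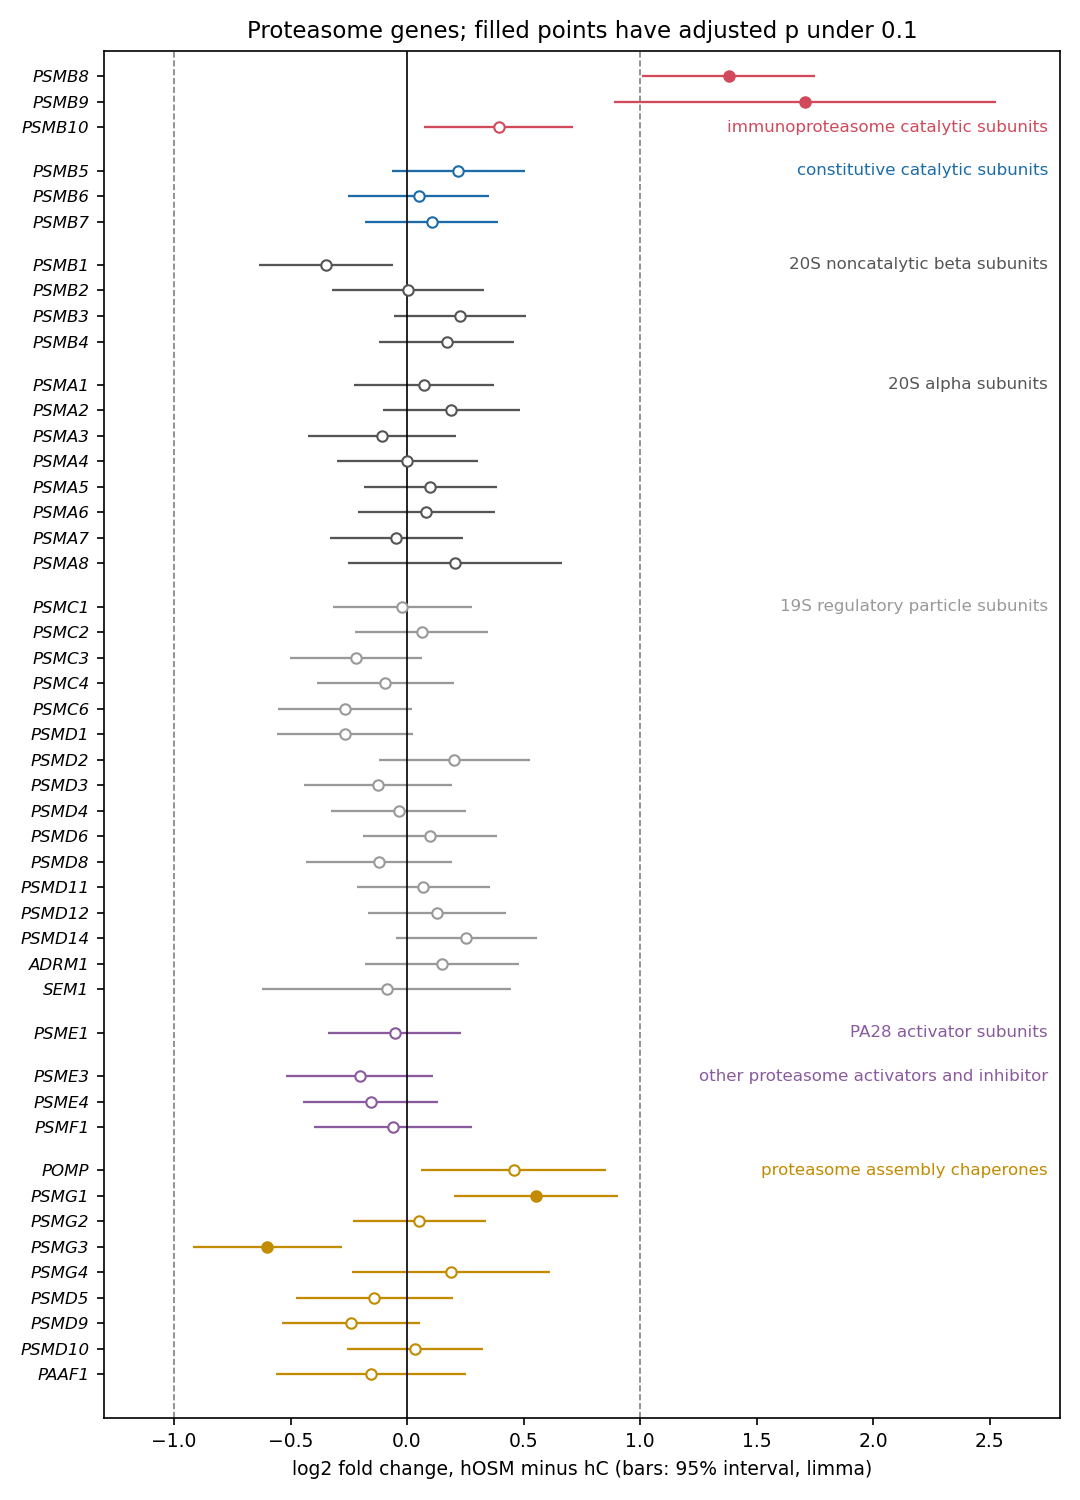
Log2 fold change (hOSM minus hC, horizontal axis) with 95% interval from limma for the measured genes of the proteasome, its activators and its chaperones, grouped by list. Filled points passed the adjusted p and dashed lines mark 2-fold. PSMB8 and PSMB9 lie beyond 2-fold, at 1.38 and 1.71, and the 28 α, noncatalytic β and 19S genes lie between −0.35 and 0.25.

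Of the genes that act on peptides beside the proteasome, 8 cytosolic and endosomal trimming enzymes were measured. At the adjusted p alone 1 was higher, 1 was lower and 6 did not pass, and 0 were called. The shares of all transcript clusters at the adjusted p alone were 9.22% higher and 10.4% lower, and 4.16% were called. NPEPPS, a cytosolic aminopeptidase, was 1.77-fold higher (log2 fold change 0.82, SE 0.14, limma adjusted p = 0.0169). LAP3, a leucine aminopeptidase known to rise with interferon γ, fell by 0.39 in log2 signal (limma adjusted p = 0.0938), with 13.44, 13.48 and 13.54 in hC and 13.16, 13.09 and 13.05 in hOSM. LAP3 was chosen after its value was seen.

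Of 5 genes of peptide transport and the class I light chain, 1 was called higher and 4 were not called (2.60% of all transcript clusters were called higher). TAP1, the neighbour of PSMB9, had log2 signals of 6.90, 7.36 and 6.89 in hC and 8.29, 7.84 and 8.28 in hOSM (2.12-fold, log2 fold change 1.09, SE 0.21, limma adjusted p = 0.0237). By set it differed by 1.39, 0.48 and 1.39, smallest in set 2 as for PSMB9, and it was no longer called without set 1 (0.94, adjusted p = 0.162) or set 3 (0.94, adjusted p = 0.195). B2M, the light chain, was 1.77-fold higher (adjusted p = 0.0164), and TAP2, the partner of TAP1 in the transporter, had a log2 fold change of 0.13 (adjusted p = 0.603). B2M and TAP2 were chosen after their values were seen. In the order of RefSeq genes along chromosome 6, TAP2, PSMB8, PSMB8-AS1, TAP1 and PSMB9 follow one another.

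Of 10 measured transcription factors known to act on the immunoproteasome and class I genes, 2 were called higher and 8 were not called. Of all transcript clusters 2.60% were called higher. IRF9, the DNA-binding part of the interferon-activated complex ISGF3, had log2 signals of 7.81, 7.97 and 7.68 in hC and 9.40, 9.30 and 9.54 in hOSM (3.02-fold, log2 fold change 1.59, SE 0.14, limma adjusted p = 0.00193). NLRC5, a coactivator of class I and immunoproteasome genes, was 2.54-fold higher (adjusted p = 0.00285), with hC signals of 4.37 to 4.58 under the background guide and hOSM signals of 5.78 to 5.97, so its fold sets a signal against background. IRF1, which induces PSMB9 and TAP1 after interferon γ, had 6.32, 6.43 and 5.63 in hC and 6.68, 6.55 and 7.29 in hOSM. Its log2 fold change of 0.71 did not pass (95% interval 0.01 to 1.42, adjusted p = 0.169, or 0.0864 without the set as a block). By set IRF1 differed by 0.36, 0.12 and 1.66, lowest in set 2 and highest in set 3. The hC array of set 3 lay under the background guide, and without set 3 the log2 fold change was 0.24. IRF2, which was chosen after its value was seen, was 1.71-fold higher (adjusted p = 0.0420).

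**Figure D5:**
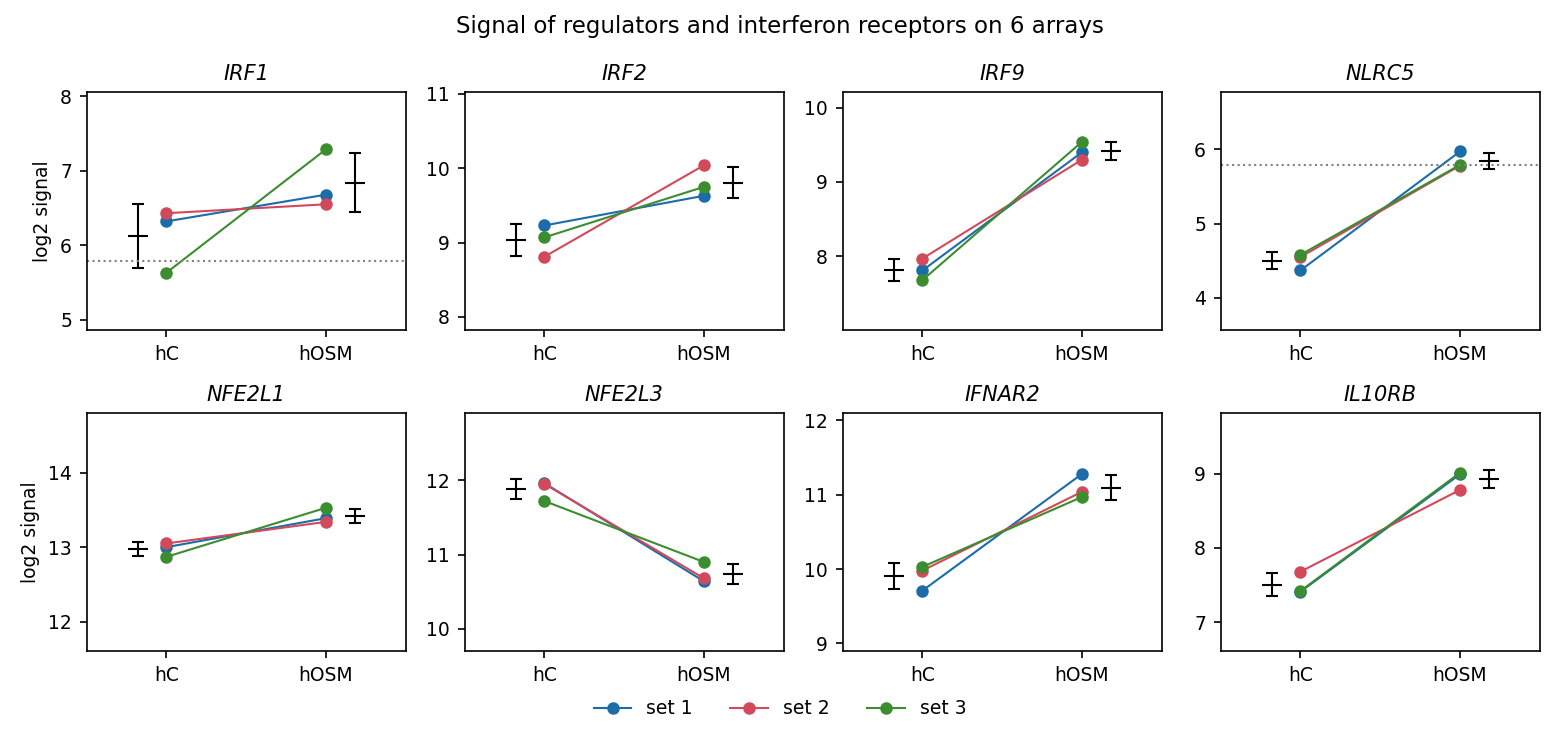
Log2 signal of 4 transcription factors of the immunoproteasome genes, 2 of the constitutive proteasome genes and 2 interferon receptor genes in hC and hOSM, with a line joining the arrays of each set and the mean and SD beside the points (n = 3 arrays). The background guide of 5.78 is dotted. IRF9 rose by 1.59, NFE2L3 fell by 1.14, and set 3 stands apart for IRF1.

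Of 8 interferon ligands and receptors, 2 were called higher and 6 were not called, where 2.60% of all transcript clusters were called higher. IL10RB, a subunit shared by the receptors of interferon λ and interleukin 10, was 2.68-fold higher (adjusted p = 0.00309 from limma), and IFNAR2, of the type I interferon receptor, 2.28-fold (adjusted p = 0.00742). IFNAR2 was no longer called when set 1 was left out (log2 fold change 1.00, limma adjusted p = 0.0604). It then still passed the adjusted p but was not over 2-fold. IFNG and IFNB1, the ligands interferon γ and interferon β, lay below the background guide in both lines. Of 4 measured genes listed for the transcription of the constitutive proteasome, 1 was called lower and 3 were not called. Of all transcript clusters 1.57% were called lower. The 4 genes are the factors NFE2L1, NFE2L2 and NFE2L3 and the enzyme NGLY1, which did not pass. At the adjusted p alone 2 were higher (NFE2L1 and NFE2L2) and 1 lower, against 9.22% and 10.4% of all transcript clusters. NFE2L2 had a log2 fold change of 0.44 (limma adjusted p = 0.0723). NFE2L3 fell by 1.14 in log2 signal (SE 0.15, limma adjusted p = 0.00649), and NFE2L1, which restores proteasome genes when the proteasome is inhibited, was 1.36-fold higher (adjusted p = 0.0809).

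Because leukocytes hold the immunoproteasome without stimulus, their markers were read on the same arrays. Of 14 measured, 1 was called higher and 13 were not called, where 2.60% of all transcript clusters were called higher. At the adjusted p alone 3 were higher (CD53, CSF1R and MS4A1) and 0 lower, against 9.22% and 10.4% of all transcript clusters. A log2 fold change above 0 was found for 11 of the 14. The called gene, CD53, had signals of 4.44 to 4.47 in hC and 5.70 to 5.75 in hOSM, below the background guide. PTPRC, the common leukocyte antigen, had signals of 4.97 to 5.17 in hC and 4.87 to 5.03 in hOSM, also below it. CSF1R, a receptor of macrophages, had means of 5.44 and 5.87 (limma adjusted p = 0.0927), and MS4A1, a B cell antigen, 3.64 and 4.03 (limma adjusted p = 0.0951), in hC and hOSM. On average 9 of the 14 lay below the guide in both lines, CSF1R in hC alone, and 4 above it in both. These 4 were CD68 (12.29 in hC and 12.60 in hOSM), LAPTM5 (9.12 and 9.69), CD79A (6.79 and 7.03) and CD79B (6.91 and 7.02), and none of them passed (adjusted p from 0.182 to 0.725). The mean log2 signal over the list was 5.56 to 5.60 on hC arrays and 5.85 to 5.89 on hOSM arrays. The part of these markers in the difference of PSMB8 and PSMB9 was not tested.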

How the data were processed

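Total RNA of the hC and hOSM lines of MDA-MB-231 (3 arrays each) was measured on Human Clariom S arrays. Log2 signals, 1 per transcript cluster and array, were deposited by the authors after RMA in the Transcriptome Analysis Console 4.0, according to the submitters' processing notes. RMA corrects background, normalizes between arrays and summarizes probes. Which RMA variant, library version and build applied is not given in the sources used here. Array medians were 6.82 to 6.85. The file holds no detection calls, and precision is limited by how many arrays there are. Gene symbols came from the platform annotation, brought up to date through RefSeq (GRCh38.p14). It names 1 gene for 17709 transcript clusters, several for 0 and none for 3739. Each measured member had 1 transcript cluster, and for other genes with several the highest mean was used.

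The deposited values were used as they stood and fitted with limma 3.58.1 (R 4.3.3; lmFit and eBayes), and the fit was tested on simulated data. The labels give both lines, grown in parallel, the same set numbers, which pair the arrays. Deviations from the group means within a set were mirror images (Pearson's r of −0.993, −0.995 and −0.992 across transcript clusters, which do not vary independently). The set was therefore a block, with 2 residual degrees of freedom beside 4.38 prior ones that limma estimated from all transcript clusters. Replicates were not stated to be separate transfections, so p-values measure only the spread between these samples. Members, lists, tests and the block were chosen with earlier results of these data known. The alternatives tried were no block, quantile normalization, median centring, eBayes with trend and robust settings, a filter that removed the 7153 dimmest transcript clusters, Tukey biweight averages (fold changes only, with no p of their own), the lowest row of a gene with several, and leaving out both arrays of each set. Besides all members, up to 4 called genes per list, or the one with the largest change where none was called, and a few fixed regulators were named. Other names were chosen after their values were seen. Promoter windows and motif letters were read from RefSeq sequences, and protein sequences were not used here.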

Additional observations from a re-analysis of the deposited data

How the results depend on the processing

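Over the alternatives with a p of their own, no passing value of a member changed direction, PSMB8 passed in each, and PSMB6, PSMB7 and PSME1 passed in none. Tukey biweight averages gave fold changes only (1.39 for PSMB8 and 1.96 for PSMB9). The gap between inducible and constitutive subunits stayed above 0 (0.87 to 1.28 with both arrays of a set left out). Without the set as a replicate block, PSMB10 (0.39, adjusted p = 0.0105), PSMB5 (0.22, adjusted p = 0.0172) and ERAP1 (0.44, adjusted p = 0.0380) also passed the adjusted p. Members past it numbered 6 and not 3, and transcript clusters 10235 and not 4217. As said above, p-values without the block are too small for these values. The block changed no other member's side of the threshold. With the 7153 dimmest transcript clusters left out PSMB10 passed (0.39, adjusted p = 0.0786), called factors of the immunoproteasome genes numbered 1 and not 2, and called leukocyte markers 0 and not 1, since dim genes were no longer tested. With trend and robust settings ERAP1 passed (0.44, adjusted p = 0.0669). With a set left out 1 residual degree of freedom remains. Then the log2 fold change ran from 1.31 to 2.26 for PSMB9 and from 0.39 to 0.55 for ERAP2, called members numbered 1 to 2, members past the adjusted p 1 to 2, called transport genes 0 to 1, called interferon receptors 1 to 2, and transcript clusters past the adjusted p 754 to 1308. Use of the lowest row of a gene altered no member, since each had 1 row. Signals near the background guide limit PSMB10, PSMB8-AS1, NLRC5, CD53 and, in set 3, IRF1.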
